A study of Mus musculus with 9 samples.

Results

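The genes described here belong to the cytotoxic programme of T cells and natural killer (NK) cells: Gzma, Gzmb, Prf1, Nkg7, Klrd1, Cd3e, Cd3g, Cd8a, Lck and Thy1. They were taken by name, as a set chosen with earlier results of these data known. Every probe set annotated to one of the symbols was used, whatever its values. Of the 10 genes, 9 had probe sets, 14 in all, among 45037 probe sets on the arrays, and Lck was not analysed here. A filter on dim signals (above the median of the array on at least 3 of 8 arrays) was passed by 7 of the 14 probe sets, which belong to Gzma, Prf1, Nkg7, Cd8a and Thy1. Gzmb, Klrd1, Cd3e and Cd3g did not pass it, and their differences come from a fit without the filter.

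Livers came from female MRL +/+ mice, a strain that develops autoimmune disease late in life, killed at an age of 11 weeks, 24 h after the last injection. The first group received dichloroacetyl chloride (DCAC) and the second dichloroacetic anhydride (DCAA), each at 0.2 mmol/kg in 100 µl of corn oil into the peritoneum, with 2 injections per week for 6 weeks. Both reagents can transfer the same dichloroacetyl group to proteins, and they differ in the leaving group, a chloride in DCAC and a dichloroacetate in DCAA. The third group is the control, which received corn oil alone by the design text and is called untreated by the labels. Each group had 3 mice, and the liver of each mouse was processed separately and hybridised to an Affymetrix array of its own.

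Cytotoxic lymphocytes store granzymes, which are serine proteases, together with the pore-forming protein perforin in granules that are released towards a target cell. T cells find targets through the T cell receptor and its CD3 chains, and NK cells through families of lectin-like and other receptors. The liver holds many NK and T cells beside its resident macrophages, the Kupffer cells, and all of them contribute RNA to a whole-liver sample. In such bulk RNA, fewer cells of a type and less RNA per cell cannot be told apart.

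The arrays differed in several ways that touch the values below. The array labelled control 2 went against its tissue label. Albumin (Alb) gave a signal of 1680 on it and 43700 to 65400 on the other 8, while the kidney tubule genes Slc34a1 and Kap gave 29600 and 27200 on it, against 134 to 236 and 263 to 518 on the others. It is therefore shown apart, and the control is control 1 and control 3 unless stated. Control 3 had the highest signal of the 8 livers for 12 of 12 Kupffer cell and macrophage genes. The sum of their signals was 11700 to 18800 in DCAC livers, 15800 to 17500 in DCAA livers, 11300 in control 1 and 38700 in control 3. For a list of pan-leukocyte genes, control 3 was highest for 9 of 13. The 3'/5' ratio of pyruvate carboxylase, a measure of how far labelling reached along a transcript, was 6.43 to 12.8 on DCAC 3 and the 3 DCAA arrays and 2.85 to 3.99 on DCAC 1, DCAC 2 and the controls. The replicates are separate mice, and 2 controls and 3 mice per compound limit the precision of each difference.

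Promoter sequences are shown for the granule genes, because 3 of them (Gzma, Gzmb and Nkg7) lay lower in treated livers on average and Prf1 did not. Each is the 250 bases before the start site of the RefSeq promoter table (GRCm38.p6), 5′ to 3′ on the strand of the gene. For Prf1 the last 85 of these bases lie inside the span that RefSeq gives for the gene and are left out, so 165 are shown. Capitals mark the core letters bound by RUNX factors (TGTGGT) and by T-box factors such as T-bet and Eomes (AGGTGT), searched on both strands, so that ACCACA and ACACCT are the same letters on the other strand.
Gzma, chr13:113100982-113101231, minus strand: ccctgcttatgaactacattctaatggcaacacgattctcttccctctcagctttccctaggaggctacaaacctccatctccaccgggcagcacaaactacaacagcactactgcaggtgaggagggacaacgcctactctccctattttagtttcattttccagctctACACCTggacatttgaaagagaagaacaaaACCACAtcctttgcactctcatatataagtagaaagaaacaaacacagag
Gzmb, chr14:56262335-56262584, minus strand: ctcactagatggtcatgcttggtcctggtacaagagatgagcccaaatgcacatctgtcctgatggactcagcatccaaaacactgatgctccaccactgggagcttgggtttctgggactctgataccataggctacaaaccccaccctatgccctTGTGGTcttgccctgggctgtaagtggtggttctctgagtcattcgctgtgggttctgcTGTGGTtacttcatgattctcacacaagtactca
Nkg7, chr7:43436888-43437137, plus strand: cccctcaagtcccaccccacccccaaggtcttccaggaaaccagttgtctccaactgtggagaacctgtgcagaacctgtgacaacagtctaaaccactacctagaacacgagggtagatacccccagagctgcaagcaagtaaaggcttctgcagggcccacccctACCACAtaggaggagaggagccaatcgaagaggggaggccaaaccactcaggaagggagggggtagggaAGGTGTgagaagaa
Prf1, chr10:61297586-61297750, plus strand: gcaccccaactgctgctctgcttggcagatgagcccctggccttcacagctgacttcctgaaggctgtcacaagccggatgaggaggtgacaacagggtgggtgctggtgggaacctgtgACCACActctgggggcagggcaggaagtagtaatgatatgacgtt
The RUNX core was present in 14.0% of 32851 promoter windows of the same length and in 5 of 8 genes of the set with a window, namely Gzma, Gzmb, Prf1, Nkg7 and Lck. The T-box core was present in 11.8% of the windows and in Gzma, Prf1, Nkg7, Cd3e and Cd3g. Gzmb carries the RUNX core at 2 places and no T-box core within these bases. In Gzma the T-box letters begin 80 bases and the RUNX letters 50 bases before the start, and in Nkg7 they begin 14 and 83 bases before it. Prf1, whose mean differences were near 0, holds both cores in its window as well, the RUNX letters 130 bases and the T-box letters 24 bases before the table's start, the T-box letters thus among the bases not shown. The core letters of ETS factors (AGGAAG), not marked here, were also searched. They were present in 29.5% of the windows and in 4 of the 8 genes, namely Prf1, Nkg7, Cd3e and Lck. All these letters describe the windows and say nothing of which factors were bound.

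No gene of the set passed the test of either compound against control. Mean log2 signals were lower for 8 of the 9 genes in DCAC livers (Cd3e by 0.03 only, with a higher mean signal, 155 against 129 in the control) and for 7 of 9 in DCAA livers, with differences beyond 1 on the log2 scale for Gzma, Klrd1 and Nkg7 with DCAC and for Nkg7 with DCAA. For DCAC against control, 0 of the 7 filtered probe sets passed a limma adjusted p under 0.05, beside 0.0326% of all 24531 filtered ones, and 0 of the other 7 passed without the filter, beside 0.00222%. An unadjusted p under 0.05 was found for 2 of 7 (Gzma and Nkg7), beside 5.02%, and for 1 of the other 7 (Klrd1), beside 4.55%. For DCAA against control, 0 of 7 passed, beside 0.0815%, and 0 of the other 7, beside 0.00888%. There an unadjusted p under 0.05 was found for 1 of 7 (Nkg7), beside 12.6%, and for 0 of the other 7, beside 9.81%, a share near that of the array. The median difference of the 9 genes was -0.49 for DCAC and -0.70 for DCAA, against -0.09 and 0.14 over all probe sets in the same unfiltered fit. Over the 5 genes that passed the filter it was -0.38 and -0.28. All treated livers lay below both controls on 4 of 14 probe sets for DCAC and on 4 of 14 for DCAA, which is 28.6% each, and on 11.7% of all probe sets for each compound. No probe set of the set had all treated livers above both controls, where 10.3% did over the array for DCAC and 17.1% for DCAA. The 2 comparisons share their control livers, so their directions are not separate observations.

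**Figure D1:**
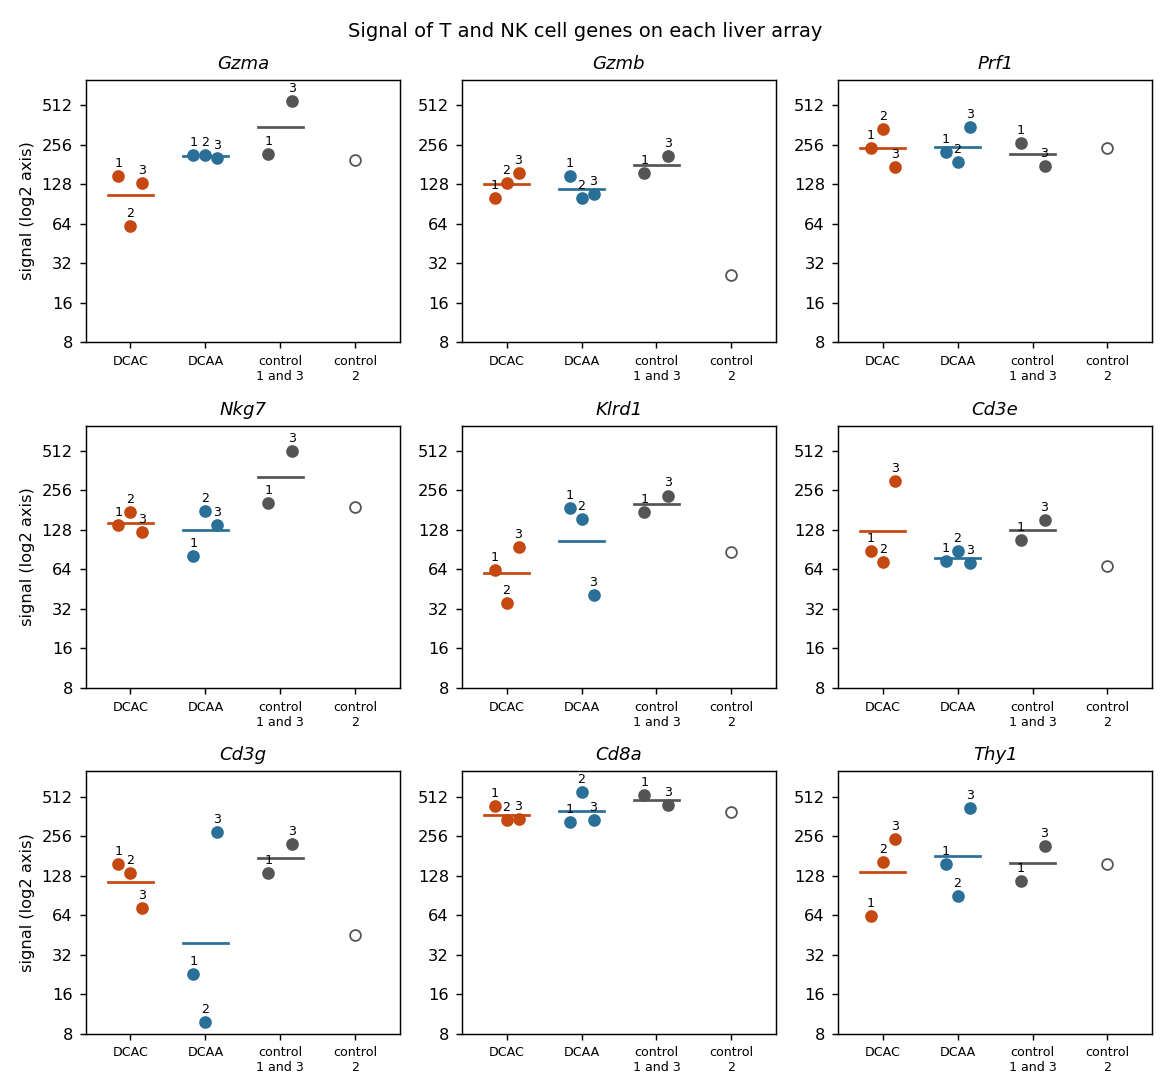
Signal of each gene on every array, on a log2 axis, with DCAC livers in orange, DCAA livers in blue, control 1 and control 3 in grey and the array labelled control 2 as an open circle. Numbers are mice, and bars are means of the log2 of signals as deposited, without the floor used in fits. Prf1 and Cd8a are shown by the probe set with the highest mean. In Gzma and Nkg7 all 6 treated livers lie below both controls, with control 3 far above the rest.

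Gzma encodes granzyme A, a tryptase of T and NK cell granules, on chromosome 13 (113093824 to 113100981, GRCm38.p6). Its signal was 148, 61.5 and 131 in DCAC livers 1 to 3, 214, 213 and 202 in DCAA livers, and 217 and 552 in control 1 and control 3. Every treated liver was below both controls, although the 3 DCAA livers lay only just below control 1, and control 3 stood far above everything else. With DCAC the log2 difference was -1.71 ± 0.51 (SE), a fold of 0.306 with a 95% interval of 0.141 to 0.665 (limma, unadjusted p = 0.00596, adjusted p = 0.71). For DCAA it was -0.72 ± 0.51, a fold of 0.606 with an interval of 0.279 to 1.32 (limma adjusted p = 0.595). The interval for DCAC lay below no change and that for DCAA spanned it. On the array labelled control 2 the signal was 196.

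Gzmb encodes granzyme B, a protease that starts apoptosis in target cells, on chromosome 14 (56258836 to 56262334). Its signal was 101, 131 and 156 in DCAC livers, 148, 101 and 108 in DCAA livers, and 154 and 208 in the controls. DCAA livers all lay below both controls, while DCAC 3 was slightly above control 1. These signals are dim, above the array median on 1 of 8 arrays, and the log2 differences of -0.49 ± 0.48 for DCAC and -0.61 ± 0.48 for DCAA are within 2 standard errors of 0 (limma adjusted p = 0.963 and 0.562 without the filter). Control 2 gave 25.9, below all 8 others.

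Prf1, which encodes perforin, lies on chromosome 10 (61297751 to 61304684) and was measured by a pair of probe sets, both above the array median on all 8 arrays. The first gave 240, 336 and 174 in DCAC livers, 225, 189 and 347 in DCAA livers, and 262 and 177 in the controls. Here control 3 was near the bottom of the range, unlike in the granzymes. The second gave 227, 172 and 233 in DCAC livers, 214, 259 and 266 in DCAA livers, and 204 and 257 in the controls. The groups overlapped on both, and log2 differences were between -0.13 and 0.19. On the first probe set the 95% interval ran from a fold of 0.611 to 2.05 for DCAC and from 0.621 to 2.08 for DCAA. Across the 8 livers the probe sets of Prf1 did not follow each other (Pearson r = -0.42, from the same arrays and thus sharing their scaling).

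Nkg7 encodes a membrane protein of the granules that takes part in their release, on chromosome 7 (43437138 to 43438246). Its signal was 140, 174 and 123 in DCAC livers, 81.5, 180 and 141 in DCAA livers, and 204 and 515 in the controls. All 6 treated livers were below both controls, and control 3 was again well above control 1. Against control, log2 signal differed by -1.16 ± 0.53 for DCAC, a fold of 0.446 (0.201 to 0.988), and -1.35 ± 0.53 for DCAA, a fold of 0.393 (0.177 to 0.87). Neither passed the test over all probe sets (limma adjusted p = 0.967 and 0.328).

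Klrd1 encodes CD94, the partner of NKG2 receptors on NK cells and some CD8+ T cells, on chromosome 6 (129588092 to 129598775). Its signal was 63.7, 35.3 and 94.9 in DCAC livers, 187, 155 and 40.8 in DCAA livers, and 175 and 234 in the controls. The DCAC livers were all below the controls, and the DCAA livers divided into 2 at about the level of control 1 and 1 far lower. DCAC 2 and DCAA 3 were under the 25th percentile of their arrays, so their true level is only bounded from above. The log2 difference was -1.57 ± 0.55 for DCAC (interval -2.78 to -0.36, limma adjusted p = 0.963 without the filter) and -0.70 ± 0.55 for DCAA (-1.91 to 0.52).

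The genes of the T cell receptor complex did not share a pattern. Cd3e and Cd3g encode the epsilon and gamma chains of CD3 and neighbour each other on chromosome 9 (44998735 to 45009663 and 44969572 to 44980431). Cd3e gave 88.3, 73.1 and 304 in DCAC livers, 74.4, 88.9 and 71.7 in DCAA livers, and 107 and 152 in the controls. DCAC 3 was high and all other treated livers lay below both controls. The log2 difference was -0.03 ± 0.60 for DCAC and -0.71 ± 0.60 for DCAA. Cd3g gave 159, 134 and 72.8 in DCAC livers, 22.9, 9.8 and 276 in DCAA livers, and 135 and 223 in the controls. DCAA 3 was the highest of all 8 livers and the other 2 DCAA livers were the lowest, both under the 25th percentile of their arrays. The log2 differences, -0.58 ± 0.72 and -0.82 ± 0.72, are close to their standard errors. For these fits, signals below the 25th percentile were raised to it. Without that floor the DCAA difference was -2.13, and with an offset of 32 in its place it was -1.21. The arrays that were high for one chain were not those that were high for the other (Pearson r = -0.16 over the 8 livers).

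Cd8a encodes the alpha chain of the CD8 co-receptor, on chromosome 6 (71373427 to 71379171), and had 5 probe sets. The one that stands for the gene by its mean gave 435, 343 and 345 in DCAC livers, 331, 560 and 339 in DCAA livers, and 524 and 446 in the controls. DCAC livers lay just below both controls, and DCAA 2 lay above them. This is a log2 difference of -0.38 ± 0.28 for DCAC and -0.28 ± 0.28 for DCAA. The other probe sets did not repeat this: their differences lay between -0.26 and 0.36 for DCAC and between -0.16 and 0.84 for DCAA, and 1 of them was under the 25th percentile on 7 of 8 arrays. The correlations between pairs of Cd8a probe sets over the 8 livers ran from -0.39 to 0.67, so the level of Cd8a depends on which is read. Thy1, a surface protein of mouse T cells that fibroblasts and neurons also carry, lies on chromosome 9 (44043384 to 44048579). It gave 63.6, 162 and 243 in DCAC livers, 156, 89.2 and 423 in DCAA livers, and 117 and 216 in the controls. The groups overlapped fully, and the log2 differences were -0.23 ± 0.72 for DCAC and 0.18 ± 0.72 for DCAA.

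**Figure D2:**
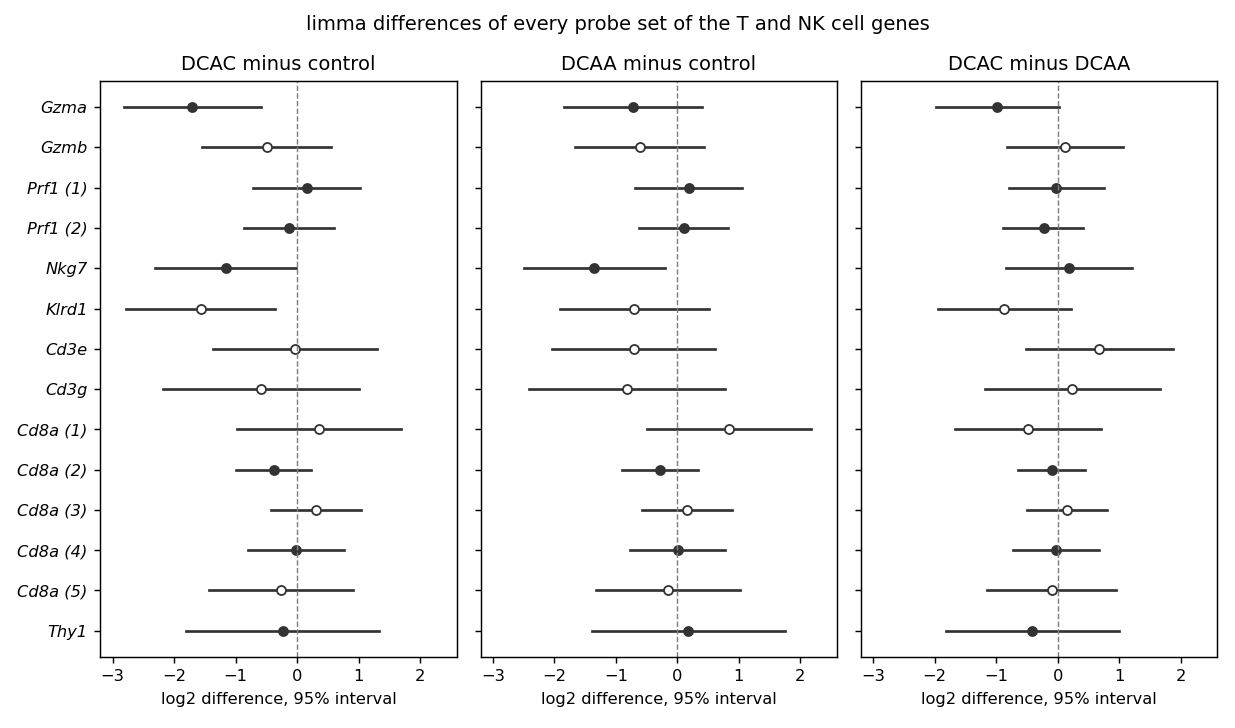
Differences in log2 signal with 95% intervals from limma for all 14 probe sets, for DCAC minus control, DCAA minus control and DCAC minus DCAA. Filled points passed the filter on dim signals and open points did not, and numbers in brackets count the probe sets of a gene; the intervals of Gzma and Klrd1 for DCAC and of Nkg7 for both compounds lie below 0.

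The plot of differences shows how little the arrays could resolve for dim genes. The 95% interval of a probe set of the set reached 2.19-fold either way at the median for a compound against control, where the median over all filtered probe sets was 1.56-fold. The spread between mice of a group, as the SD of log2 signals, was 0.99 for Thy1, 0.93 for Cd3g and 0.73 for Cd3e, against a median of 0.31 over the filtered probe sets. Gzmb and Cd8a varied by 0.31 each. With all 6 treated livers against both controls, 0 of the 7 filtered probe sets passed, beside 0.0734%, and 0 of the other 7, beside 0.04%. An unadjusted p under 0.05 was found for Gzma and Nkg7, 2 of the 7, beside 7.22%, and for 0 of the other 7, beside 5.21%. The log2 difference was -1.21 ± 0.53 for Gzma and -1.26 ± 0.47 for Nkg7 (limma adjusted p = 0.652 and 0.581). Those 2 probe sets, 14.3% of the 14, had all treated livers below both controls, and 4.13% of all probe sets did. None of the 14 had all treated livers above both controls, as 5.01% of all did.

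How far treated livers lay below control depended on which control liver they were set against. Control 3 exceeded control 1 for 7 of the 9 genes, by 2.55-fold for Gzma, 2.53-fold for Nkg7 and 1.34-fold for Klrd1. Against control 3 alone, the difference in mean log2 signal was -2.38 for DCAC and -1.40 for DCAA in Gzma, and -1.83 and -2.02 in Nkg7. Against control 1 alone it was -1.03 for DCAC and -0.05 for DCAA in Gzma, and -0.50 and -0.68 in Nkg7. Klrd1 with DCAC was at -1.78 against control 3 and -1.36 against control 1. The median over the 9 genes was -0.71 for DCAC and -0.91 for DCAA against control 3, and -0.28 and -0.40 against control 1. For 7 of 9 genes with DCAC and 8 of 9 with DCAA the mean of the treated livers was below control 1 as well. Control 3 is also the liver with the highest macrophage and leukocyte signals, and the part of that in the values of these genes was not tested. Against the array labelled control 2, the medians were -0.07 for DCAC and 0.20 for DCAA.

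**Figure D3:**
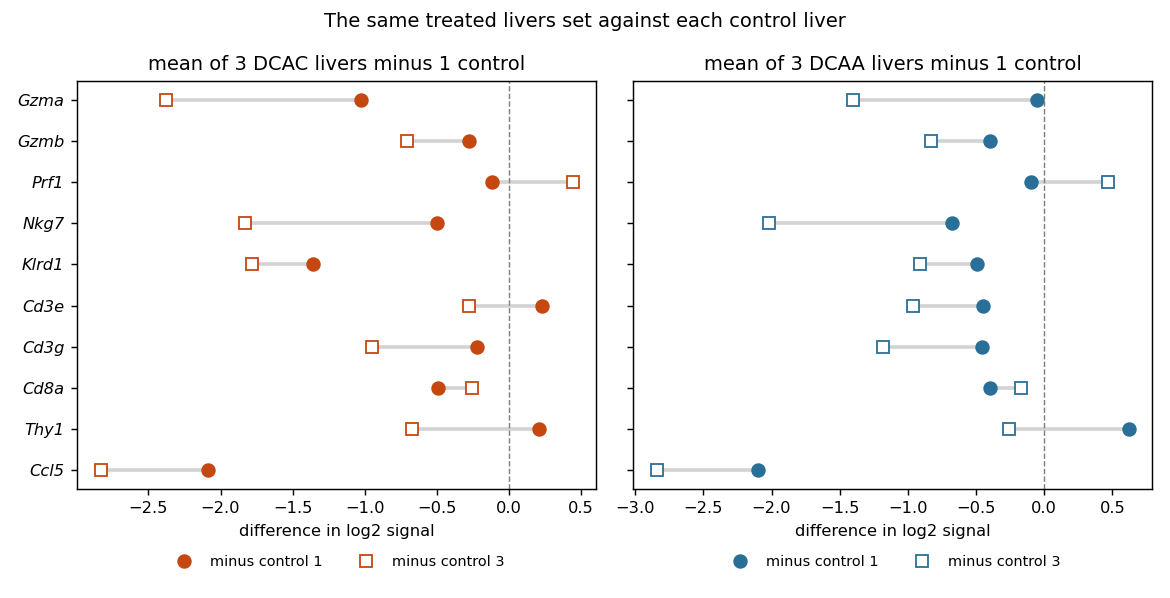
Mean log2 signal of the 3 DCAC livers (left) and of the 3 DCAA livers (right) minus that of control 1 (filled circles) or control 3 (open squares), for the 9 genes and for the chemokine gene Ccl5. Gzma with DCAA lies at -0.05 against control 1 and -1.40 against control 3, while Ccl5 lies below -2 against either control.

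Between the compounds, given at the same dose and for the same time, each of the 14 probe sets was compared, with p-values adjusted over every probe set of the fit. For DCAC against DCAA, 0 of the 7 filtered probe sets passed, beside 0.00408%, and 0 of the other 7, beside 0%. An unadjusted p under 0.05 was found for 0 of 7, beside 9.28%, and for 0 of the other 7, beside 11.5%. Gzma was the only one of the 14 on which the groups did not overlap, with all 3 DCAC livers below all 3 DCAA livers, beside 9.14% of all probe sets in this direction and 4.55% in the other, in which none of the 14 lay. Its log2 difference was -0.98 ± 0.46, with an interval of -1.98 to 0.02 (limma adjusted p = 0.539). The DCAA livers lay within a narrow band, 210 ± 6.77 in signal, and the DCAC livers averaged 114 ± 45.8 (SD, n = 3 each). Klrd1 had a difference of -0.87 (-1.95 to 0.21), in which DCAA 3 overlapped the DCAC livers. For Nkg7 it was 0.18 with an interval of -0.84 to 1.21, and for Gzmb 0.12 with -0.82 to 1.06. The intervals of Nkg7 and Gzmb allow differences of over 1.5-fold in either direction. Those of Gzma and Klrd1 ran from a fold of 0.253 to 1.01 and from 0.258 to 1.16. None of these intervals shows that the compounds act alike on these genes. DCAA arrays and DCAC 3 have the higher 3'/5' ratios, which DCAC 1 and DCAC 2 do not share. Only the DCAC group holds both classes of ratio. With that class as a block, the difference (DCAC minus DCAA) is therefore that of DCAC 3 alone from the DCAA livers. It was -0.68 for Gzma and -0.40 for Klrd1, where the fit without the block gave -0.98 and -0.87. Cd3e was at 1.96 with the block and 0.68 without it, Nkg7 at -0.05 and 0.18, and Cd3g at -0.43 and 0.24.

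Other genes of the same pathways were read from lists of related genes. Among other granule genes, 10 of 18 with a probe set passed the filter and 0 passed the test for either compound, with median log2 differences of 0.10 for DCAC and 0.07 for DCAA. Over all 18 genes, without the filter, the medians were -0.13 and 0.14. Gzmk, the neighbour of Gzma in function as another tryptase granzyme, gave 124, 197 and 57.5 in DCAC livers, 156, 273 and 193 in DCAA livers, and 276 and 323 in the controls. All treated livers were below both controls here too, and control 3 exceeded control 1 by only 1.17-fold. Its log2 difference was -1.41 ± 0.53 for DCAC and -0.57 ± 0.53 for DCAA (limma adjusted p = 0.928 and 0.693). Of the 10 filtered genes of this list, Gzmk alone had all treated livers below both controls. Lamp1 alone had them above both, at 0.36 for all treated livers. Srgn, the proteoglycan that packs granzymes, was at -0.18 and 0.28. The granzyme inhibitors Serpinb9 and Serpinb9b were at 0.14 and 0.12 for DCAC and at 0.01 and -0.46 for DCAA. For Serpinb9b all DCAA livers lay below both controls.

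The NK receptor list had 7 genes that passed the filter of 20 with a probe set, and 0 passed the test, with medians of -0.10 for DCAC and -0.04 for DCAA, and of -0.10 and 0.15 over all 20. Klrk1, which encodes the activating receptor NKG2D, was at 0.48 for each compound, but at -0.14 for DCAC and -0.13 for DCAA against control 3 alone. Klre1, an NK receptor that pairs with Klri proteins, was at 0.60 and 0.57. Klrg1, a receptor of mature NK and effector T cells, was at 0.20 and 0.32, and Cd160 at -0.10 and -0.82. The other 3 genes that passed the filter were negative, with Tyrobp at -0.83 and -0.57, Fcgr3 at -0.67 and -0.12, and Itga2 at -0.31 and -0.04, and NK cells share Tyrobp and Fcgr3 with macrophages. The list of other T cell receptor genes had 10 of 24 that passed the filter, with medians of -0.14 for DCAC and 0.15 for DCAA (-0.09 and 0.23 over all 24) and 0 past the test. Zap70, the kinase recruited to CD3, was at -0.05 and 0.21. Cd5 was at -0.24 and 0.10, the adaptor gene Lcp2 at -0.47 and -0.38, and Trat1 at 0.41 and 0.74. Against control 1 alone, Lcp2 was at 0.23 for DCAC and 0.31 for DCAA, and against control 3 alone at -1.16 and -1.07. Cd40lg differed most of the filtered genes of this list, at 1.5 and 1.63, with all treated livers above both controls (limma adjusted p = 0.855 and 0.244). Ptprc was at -0.71 and -0.45, Skap1 at -0.54 and 0.38, and Fyn at -0.52 and 0.02. The Ptprc signal was 421 in control 1, below all treated livers (479 to 752), and 1730 in control 3. Themis was at -0.05 and 0.67, and Icos at 0.08 and -0.38.

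Transcription factor genes of T and NK cells had medians of -0.39 for DCAC and -0.31 for DCAA over 9 of 17 genes that passed the filter, with 0 past the test. Over all 17, without the filter, the medians were -0.10 and 0.16, so the direction for DCAA turned. Eomes, a T-box factor of NK and memory CD8 T cells, gave 138, 213 and 22.4 in DCAC livers, 168, 110 and 134 in DCAA livers, and 226 and 225 in the controls. All treated livers were below the controls, which lay close together here, and DCAC 3 was under the 25th percentile of its array. The log2 difference was -1.0 ± 0.63 for DCAC and -0.73 ± 0.63 for DCAA (limma adjusted p = 0.977 and 0.664). Of the 9 filtered factor genes, Eomes alone had all treated livers below both controls, and 0 had them above. Id2, needed for NK cells and active in many other cells, was at -0.26 and -0.49. Bcl11b, a T cell factor, was at 0.14 and -0.14, and Ets1 at -0.32 and -0.23.

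In the list of chemokines and cytokine receptors, 14 of 20 genes passed the filter and 0 passed the test, with medians of 0.07 for DCAC and -0.09 for DCAA (-0.08 and 0.14 over all 20). Ccl5 (RANTES), a chemokine made by activated T and NK cells among others, gave 60.5, 249 and 24.6 in DCAC livers, 153, 58.5 and 77.1 in DCAA livers, and 383 and 641 in the controls. All 6 treated livers were below both controls by a clear gap, and DCAC 3 and DCAA 2 were under the 25th percentile of their arrays. On the log2 scale the difference was -2.46 ± 0.74 for DCAC and -2.47 ± 0.74 for DCAA, and for all treated livers -2.46 ± 0.65 (limma adjusted p = 0.71, 0.223 and 0.372). It held in size against control 1 alone, at -2.09 and -2.10. Of the 14 filtered genes of this list, Ccl5 alone had all treated livers below both controls, and 0 had them above. For all treated livers, 2 of the 14 were lower and 3 higher at an unadjusted limma p under 0.05. Cxcl9, an interferon-induced chemokine that attracts T and NK cells, was at -1.19 and -1.37, largely through a signal of 1589 in control 3 against 514 in control 1. Cxcl10, which binds the same receptor, was at 0.88 and 1.2, and Ccl4 at -0.07 and 0.15.

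**Figure D4:**
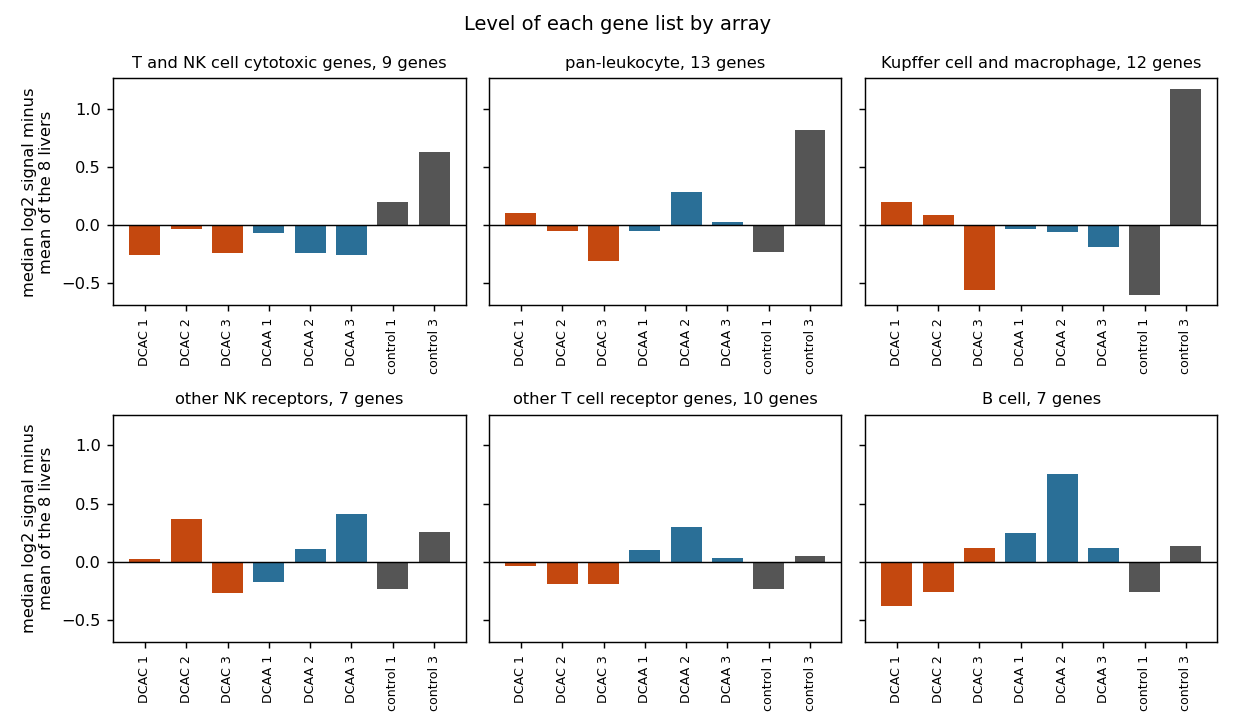
Median over the genes of a list of the log2 signal minus the mean of the 8 livers, for each array, with DCAC livers in orange, DCAA livers in blue and controls in grey. The 9 cytotoxic genes lie at 0.63 in control 3 and 0.20 in control 1 and below 0 in all 6 treated livers. Macrophage and leukocyte genes are high in control 3 and below 0 in control 1, where NK receptor and T cell receptor genes lie at -0.23 each.

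In control 1 the genes of the set lay higher than the other lists in the plot of list levels by array. Their median there was 0.20 above the mean of the 8 livers. The leukocyte, NK receptor and T cell receptor lists stood at -0.23 each, the B cell list at -0.26 and the macrophage list at -0.60. Lists not drawn stood at 0.08 for other granule genes and 0.06 each for the transcription factor and chemokine lists. The 9 genes include Gzmb, Klrd1, Cd3e and Cd3g, which failed the filter, while the other lists hold only genes that passed it. In control 3 the 9 genes and the leukocyte and macrophage lists were high, at 0.63, 0.82 and 1.17. The NK receptor and T cell receptor lists were at 0.26 and 0.05 there. In the 6 treated livers the 9 genes stood at -0.26 to -0.03. The summed signals of the 9 genes were 1440 to 1640 in DCAC livers, 1440 to 1950 in DCAA livers, and 1900 and 2720 in control 1 and control 3, so the sums of DCAA livers and controls overlapped. The leukocyte list summed to 4880 to 6310 in DCAC livers, 5600 to 6310 in DCAA livers, and 5100 and 10200 in the controls. B cell genes had medians of -0.07 for DCAC and 0.24 for DCAA, with the highest list level, 0.75, in DCAA 2. Neutrophil genes that passed the filter, 8 of 9, had medians of 0.77 and 0.75 (0.75 and 0.47 over all 9). Negative for each compound were 2 of the 8, Csf3r at -0.74 and -0.89 and Ngp at -0.11 and -0.03. Elane was at 1.31 and 1.19, S100a9 at 0.78 and 1.16 and S100a8 at 0.75 and 1.03, each with all treated livers above both controls. Ltf was at 0.83 and 0.47 and Mpo at 0.36 and 0.31. Of the 8, 1 passed the test, the azurophil granule protease gene Prtn3 with all treated livers against control. It gave 711, 778 and 761 in DCAC livers, 590, 761 and 784 in DCAA livers, and 222 and 45.0 in the controls. The log2 difference for all treated livers was 2.73 ± 0.38 (limma adjusted p = 0.015). Neither compound alone passed (limma adjusted p = 0.0648 for DCAC and 0.0521 for DCAA). With all 9 arrays, all treated livers against control did not pass (limma adjusted p = 0.154). Control 3 lay below the floor of its array, 54.3, to which fits raised it. The difference was 1.75 for DCAC and 1.67 for DCAA against control 1 alone, and 3.79 and 3.7 against control 3 alone.

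Across the 8 livers the signals of the genes of the set followed each other only weakly. The median Pearson r over their 36 pairs was 0.21, where the leukocyte list had 0.40 over 78 pairs and the macrophage list 0.79 over 66. These are descriptions from 8 arrays that share one scaling, and dim signals lower such values. Gzmb, Klrd1, Cd3e and Cd3g failed the filter that all genes of the leukocyte and macrophage lists passed. Control 3 was highest for 9 of 13 leukocyte genes and 12 of 12 macrophage genes. The medians of these lists were not computed without it, so its part in the contrast was not tested. Gzma and Klrd1 followed each other most closely, at 0.80 and, without control 3, at 0.72. Gzma and Nkg7 stood at 0.54 and, without control 3, at -0.18, so their likeness rests on that liver. Prf1 and Cd3e ran most strongly against each other, at -0.70. Of 20558 other filtered probe sets, those most like the mean z-score of the 9 genes were Srsf10 (r = 0.95), Nufip2 and Actn1 (0.94 each), Capza1 (0.93), Khnyn and Cblb (0.92 each). They were picked for this likeness, and without control 3 the r of these 6 was 0.96, 0.84, 0.78, 0.85, 0.91 and 0.74 in the same order. Srsf10 gave 231, 269 and 270 in DCAC livers, 240, 265 and 360 in DCAA livers, and 454 and 500 in the controls. Cblb, with the lowest r of the 6 without control 3, encodes a ubiquitin ligase that restrains lymphocyte activation. It gave 366, 362 and 369 in DCAC livers, 374, 301 and 399 in DCAA livers, and 505 and 670 in the controls. A link of these 6 genes to lymphocytes was not tested.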

How the data were processed

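The deposited values are array signals (intensity, linear), computed by the authors with GCOS, per the submitters' processing notes; its version is not given in the sources used here. Each array has a trimmed mean of 500.0. No detection calls were used. Symbols come from the platform annotation, and 64 control probe sets were left out of tests. For fits, signals below the 25th percentile of an array were raised to it before log2; levels and overlap of groups use signals as deposited. A probe set was kept when it exceeded the array median on 3 or more of 8 arrays (24531). Groups were compared in one model with limma 3.58.1 in R 4.3.3 (eBayes, intensity trend), and all treated mice with control in another. P-values are two-sided, Benjamini-Hochberg adjusted over all probe sets fitted, with calls under 0.05. Genes failing the filter have values from a fit of all 45037 probe sets. The array labelled control 2 enters only an alternative. The kept probe set with the highest mean stands for a gene. Named list genes are those that passed and the first 4 kept in list order. For the NK receptor, T cell receptor and neutrophil lists the other kept genes are named as well. The members, the lists and the order of genes in them, the tests and the alternatives were chosen with earlier results of these data known. Same-numbered mice of different groups deviated with correlations of -0.0579 to 0.0304 and other mice with -0.0521 to 0.0679, so replicate numbers were not taken to pair mice. The fit was tested on simulated data.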

Additional observations from a re-analysis of the deposited data

Results flagged for a closer look

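Among the 6 treated livers, the Cd3e signal of DCAC 3 stood apart, with a gap to the next liver that was 0.851 of the whole range (Dixon's ratio). Without DCAC 3, the Cd3e difference of DCAC from control was -0.67, where it was -0.03 with it. Without DCAC 1 or DCAC 2 it was 0.23 and 0.36. A gap was flagged when its ratio passed a cutoff that chance passes in about 1 in 20 groups, and 0.851 lies above that cutoff. How often chance gives a gap as large as this one was not computed. Probe sets with a treated liver under the 25th percentile of its array were not examined. On the array labelled control 2, which showed kidney genes, 2 probe sets of Cd8a gave more than on any liver, 452 and 495, against 191 to 338 and 72.5 to 190 on the other 8 arrays.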

How the results depend on the processing

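Of 561 differences of the 9 genes under the alternatives, 0 passed the threshold and 36 changed sign. A gene that failed the filter once an array was left out was read without the filter. Gzma and Nkg7 have no value with the filter on every array, and Klrd1 none there or with 1 probe set per gene. In the other alternatives these 3 genes stayed below control for both compounds. Gzma ranged from -2.38 to -1.03 for DCAC and from -1.40 to -0.05 for DCAA, Nkg7 from -1.83 to -0.50 and from -2.02 to -0.68, and Klrd1 from -1.80 to -1.16 and from -1.41 to -0.25. The median over the 9 genes ranged from -0.71 to -0.23 for DCAC and from -1.05 to -0.29 for DCAA. The limits are 2 controls, 1 of them high in leukocyte genes, and dim signals. The causes of the changes below were not tested.

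Sign changes were found mostly for values near 0. With all 9 arrays, Gzmb was at 0.04 and Cd3e at 0.28 for DCAC. With a block for the class of 3'/5' ratio, Cd3g was at 0.18 and Thy1 at -1.08 for DCAA. For DCAC against DCAA, Nkg7 was then at -0.05, Cd3g at -0.43 and Thy1 at 0.43. DCAA livers and controls share no class, so the DCAA values rest on the class difference within the DCAC livers. The values for DCAC against DCAA set DCAC 3 alone against the DCAA livers. Cd3e for DCAC was at 0.03 with quantile normalization, 0.05 with a common median and 0.02 with an offset of 32. Prf1 for DCAC against DCAA was at 0.12 with quantile normalization, 0.16 with a common median and 0.32 with array weights. Cd8a was at 0.09 there with a common median, and Thy1 for DCAA at -0.24 with array weights. Cd3g kept its sign but changed in size with the floor. For DCAA it was at -2.13 without a floor. For DCAC against DCAA it was at 1.55 without a floor and 0.74 with an offset of 32, where the main fit gave 0.24. Leaving out each array in turn gave ranges that crossed 0. For DCAC they were -0.12 to 0.44 for Prf1, -0.67 to 0.36 for Cd3e and -0.67 to 0.32 for Thy1, and for DCAA -0.10 to 0.47 for Prf1 and -0.43 to 0.69 for Thy1. For DCAC against DCAA they were -0.03 to 0.29 for Gzmb, -0.26 to 0.23 for Prf1, -0.14 to 0.43 for Nkg7, -0.16 to 0.99 for Cd3g, -0.23 to 0.15 for Cd8a and -0.92 to 0.20 for Thy1.

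Calls over the whole array, of which none is a gene of the set, numbered 8 for DCAC, 20 for DCAA, 1 for DCAC against DCAA and 18 for all treated against control. In the same order they were 0, 0, 0 and 0 with all 9 arrays (1336, 3025, 1446 and 2584 at an unadjusted limma p under 0.05), 2, 0, 3 and 5 with that class of ratio as the block, 1, 4, 0 and 18 without the filter, and 0, 0, 0 and 2 by eBayes without trend. Array weights gave 30, 141, 1 and 62. A common median gave 9 for DCAA and 0 for DCAC against DCAA, robust eBayes gave 1 for DCAC, and only the groups compared gave 2 for DCAC against DCAA. Leaving out each array in turn gave 2 to 14, 3 to 87, 0 to 2 and 4 to 27, with 87 reached without DCAA 1.

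The mice of the groups share only replicate numbers. With the replicate number as a block, the calls were 7, 17, 1 and 7, and Cd3e for DCAC was at 0.12; none of the 9 genes passed.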
